A study of Mus musculus with 3 samples.

Results

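The oligoadenylate synthetase (OAS) family was measured in chromatin-bound RNA of stimulated mouse macrophages. The 8 members, taken by symbol and joined by gene identifier, were Oas1a, Oas1b, Oas1c, Oas1g, Oas2, Oas3, Oasl1 and Oasl2, out of 55536 annotated genes. The cells were primary bone-marrow-derived macrophages of strain C57BL/6J, grown from marrow progenitors and treated with Lipid A at 100 ng/ml for 60 minutes. Lipid A is the membrane anchor of bacterial lipopolysaccharide and the ligand of Toll-like receptor 4. The labels gave 1 group of 3 libraries, with labelled RNA inputs of 1 µg (replicate 1), 250 ng (replicate 2) and 500 ng (replicate 3). Ribosomal RNA had been depleted before total RNA-seq, and the chromatin fraction is rich in nascent and partly spliced transcripts. The labels record neither sex nor age and name the same donor for each library. Because no separate animals are named, the p-values below cover the spread of these libraries alone, and that spread may be technical. No untreated sample was analysed here, so the values are levels after stimulation, not responses to it.

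OAS enzymes sense double-stranded RNA and then join ATP into short chains, called 2-5A, with an unusual linkage. 2-5A sets off the cutting of viral and cellular RNA and so halts translation. In macrophages the family is known as interferon-stimulated: interferon beta acts through its receptor, and a complex that includes STAT2 and IRF9 binds interferon-stimulated response elements (ISREs) in promoters. OAS1-type genes encode a single synthetase unit and Oas2 and Oas3 encode repeated units, while the Oasl proteins end in ubiquitin-like domains.

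All 8 members lie on chromosome 5 of mm10, in 2 clusters 5.79 Mb apart. The Oasl cluster spans 41.0 kb and holds Oasl2 (chr5:114896936-114912234) and Oasl1 (chr5:114923240-114937915), both on the plus strand. The larger cluster spans 177.2 kb. On its minus strand lie Oas2 (chr5:120730333-120749853), Oas3 (chr5:120753098-120777661), Oas1c (chr5:120800194-120812514), Oas1g (chr5:120876142-120887613) and Oas1a (chr5:120896256-120907521). Oas1b (chr5:120812635-120824163) lies on the plus strand, and its start is 121 bases from that of Oas1c, in the opposite direction. The annotation calls Oas1b a polymorphic pseudogene and the other 7 members protein coding. Oas1b is known as the flavivirus resistance gene, and C57BL/6 mice carry a form with an early stop codon. Coding transcripts encode 367 residues for Oas1a and for Oas1g, 362 for Oas1c, 511 for Oasl1 and 508 for Oasl2. The longest coding transcripts of Oas2 and Oas3 encode 751 and 1138 residues. The annotation gives 376 residues for the polymorphic pseudogene transcript of Oas1b and 251 for its coding transcript.

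**Figure D1:**
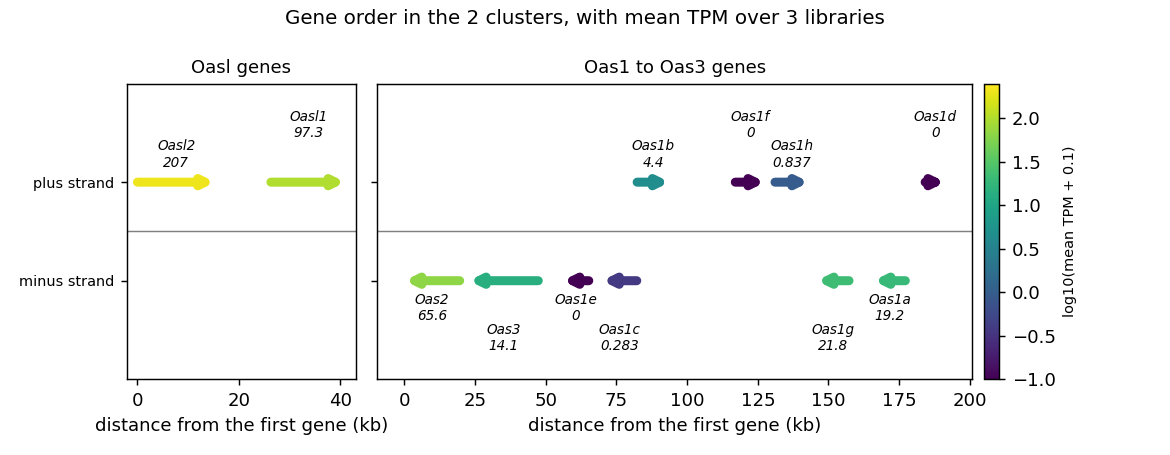
Position and strand of the 8 members and of the other Oas1 genes in each cluster, on axes of distance in kb from the first gene of the cluster. Arrows point in the direction of transcription, and colour and the printed number give the mean TPM over 3 libraries. In the larger cluster, Oas1a (19.2) and Oas1g (21.8) lie side by side, between Oas1h (0.837) and Oas1d (0).

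Promoter sequences were matched for 6 of the 8 members in a RefSeq table of build GRCm38.p6. No entry was matched for Oas2 and Oas1b. Each window runs from 250 bases before to 50 bases after the RefSeq start, and was searched on both strands for an ISRE core: GAAA, 2 bases of any kind, GAAA. The core was in 4 of the 6 windows, those of Oas1a, Oas1c, Oas1g and Oas3. Of all 32851 promoters in that collection, 3.44% held it. The 120 bases before each start are shown, since they carry every ISRE core found in the members. They lie at chr5:120907526-120907645 for Oas1a, chr5:120887614-120887733 for Oas1g, chr5:120812515-120812634 for Oas1c and chr5:120777660-120777779 for Oas3, all read from the minus strand. The stretches of Oasl1 (chr5:114923120-114923239) and Oasl2 (chr5:114896814-114896933), read from the plus strand, are shown for comparison. Capitals mark bases within an ISRE core.
Oas1a: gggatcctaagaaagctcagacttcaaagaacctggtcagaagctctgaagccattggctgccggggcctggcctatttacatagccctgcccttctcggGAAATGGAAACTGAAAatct
Oas1g: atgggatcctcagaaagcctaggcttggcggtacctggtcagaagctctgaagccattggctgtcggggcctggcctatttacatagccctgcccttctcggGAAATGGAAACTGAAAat
Oas1c: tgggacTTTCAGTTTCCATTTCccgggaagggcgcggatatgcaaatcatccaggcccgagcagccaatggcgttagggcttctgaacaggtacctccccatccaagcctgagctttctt
Oas3: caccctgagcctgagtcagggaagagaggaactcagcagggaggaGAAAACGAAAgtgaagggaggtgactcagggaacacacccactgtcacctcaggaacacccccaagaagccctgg
Oasl1: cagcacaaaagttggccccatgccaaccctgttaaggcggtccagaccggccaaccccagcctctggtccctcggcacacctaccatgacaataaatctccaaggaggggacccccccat
Oasl2: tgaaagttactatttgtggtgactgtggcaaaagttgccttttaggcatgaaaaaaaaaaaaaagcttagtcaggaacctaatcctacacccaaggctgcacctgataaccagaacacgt

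In Oas1a and Oas1g a pair of overlapping cores formed the same 16-base run, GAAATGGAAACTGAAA. It ended 5 bases before the start in Oas1a, at positions -20 to -5, and lay at -18 to -3 in Oas1g. Oas1c had the same run on the opposite strand at -114 to -99. Read toward Oas1b, that run lies 22 to 7 bases before the annotated Oas1b start, so the stretch between the Oas1c and Oas1b starts holds it close to Oas1b and far from Oas1c. Over all promoters the run was in the promoters of 5 genes: these 3 members and Apol9a and Apol9b. The core of Oas3, GAAAACGAAA, was at -75 to -66. The windows of Oas1a and Oas1g were identical at 261 of 294 aligned bases (88.8%). A GAS element, TTCNNNGAA, the gamma interferon activation site, was found only in Oas1a, at -98 to -90, and 8.3% of all promoters held one. TATAAA was found only in Oasl2, on the opposite strand at -187 to -182, against 13.6% of all promoters. A match describes these letters only, and no match says nothing about a factor.

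Expected counts assigned to genes were 13318395, 15352661 and 15812581 in replicates 1, 2 and 3. All 10 macrophage markers, Csf1r and Adgre1 among them, reached 1 TPM in each library, with a summed level of 967 to 1258 TPM. Of 21 markers of T cells, B cells, neutrophils, dendritic cells, fibroblasts and endothelium, 2 (Bst2 and Kdr) reached that level in each library. The 21 summed to 7.79 to 11.98 TPM, and 5 had no count in any library: Cd3d, Cd3e, Ly6g, S100a8 and Elane. TPM (transcripts per 1000000) is a level per transcript length and a share of a library's total.

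Detection was set at 1 TPM or more in every library, and 7 of the 8 members passed, against 35.7% of coding genes. The members were chosen with earlier results of these data known. The 4 Oas1 genes outside the list were not detected in the gene table. Oas1b, which passed, is annotated as a polymorphic pseudogene and is not among those coding genes. The summed level of the family was 403.6, 316.7 and 567.4 TPM in replicates 1, 2 and 3, lowest in replicate 2 and highest in replicate 3. The Oasl cluster made up 71.3%, 60.5% and 76.2% of it, or 69.3% ± 8.01 (SD, n = 3). That share is of TPM and depends on the correction for length. By mean CPM, a library share of expected counts not divided by length, Oasl2 had 310.8, Oas2 264 and Oasl1 107.4. In bulk RNA such as this, fewer cells with a transcript and less of it in each cell cannot be told apart.

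Oasl2, whose mouse protein is known to make 2-5A, was the highest member. It stood at 202, 146 and 272 TPM in replicates 1, 2 and 3, or 206.6 ± 63.6 (SD, n = 3), from 4891, 3048 and 5798 expected counts. Oasl1 encodes an OAS-like protein without synthetase activity, known to repress translation of Irf7 mRNA. Its level was 85.8, 46.2 and 160 TPM, or 97.3 ± 57.8 (SD, n = 3), from 1485, 760 and 2547 counts. Both genes were lowest in replicate 2 and highest in replicate 3.

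Oas2 stood at 60.3, 65.1 and 71.4 TPM, or 65.6 ± 5.57 (SD, n = 3), from 3760, 3771 and 4175 counts. Oas3, which in human cells is the main source of 2-5A upon viral infection, was lower on the same per-length scale. It stood at 13.3, 14.6 and 14.3 TPM, or 14.1 ± 0.677 (SD, n = 3), from 713, 675 and 800 counts. For both genes the 3 libraries lay close together, and replicate 1 was the lowest.

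Among the OAS1-type genes, Oas1g and Oas1a encode active synthetases. Oas1g was at 20.9, 22.0 and 22.5 TPM, or 21.8 ± 0.827 (SD, n = 3), from 443.7, 415.2 and 428.4 expected counts. Oas1a was at 16.6, 19.1 and 21.8 TPM, or 19.2 ± 2.62 (SD, n = 3), from 512.3, 530.8 and 613.6 expected counts. The ranges of these neighbours overlapped, and reads of one can be assigned to the other. Of the 31-base words in Oas1a transcripts, 68.7% also occurred in Oas1g, and 54.6% of those in Oas1g occurred in Oas1a. The deposited posterior SD of the count was 7.46 to 8.18 for each of the pair in every library, and 0 for the other 6 members.

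Oas1b was at 4.59, 3.88 and 4.72 TPM, or 4.40 ± 0.452 (SD, n = 3), from 86, 63 and 94 counts. Oas1c, which is reported to lack synthetase activity, was the member not detected. It stood at 0.22, 0.29 and 0.34 TPM, or 0.283 ± 0.0603 (SD, n = 3), from 6, 10 and 12 counts. Of its 31-base words, 25.2% occurred in another gene, most often Oas1e. Apol9a and Apol9b, the other genes with the 16-base ISRE run in a promoter, had at most 4 counts in any library. They were named after their values were seen, and a link between the run and the level of a gene was not tested.

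Neighbours in the order of mean TPM were compared within each library on the log2(TPM + 1) scale, by exact permutation of signs (two-sided). With 3 libraries that test cannot give a p under 0.25, so no pair could pass a threshold of 0.05. Ranges did not overlap for 4 of the 7 neighbour pairs. Oas2 exceeded Oas1g by 1.55 ± 0.07 (SD), Oas1a exceeded Oas3 by 0.41 ± 0.15, Oas3 exceeded Oas1b by 1.48 ± 0.17 and Oas1b exceeded Oas1c by 2.07 ± 0.14. For the other 3 pairs the ranges overlapped. Oasl2 was above Oasl1 in each library, by 1.21 ± 0.44, and Oas1g above Oas1a in each, by 0.18 ± 0.14. Oasl1 was above Oas2 in 2 of 3 libraries and below it in replicate 2, with a mean difference of 0.39 ± 0.83 (exact permutation p = 0.5). For the other 6 pairs the exact permutation p was 0.25, the smallest possible, and 0.292 after Benjamini-Hochberg adjustment over the 7 pairs.

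**Figure D2:**
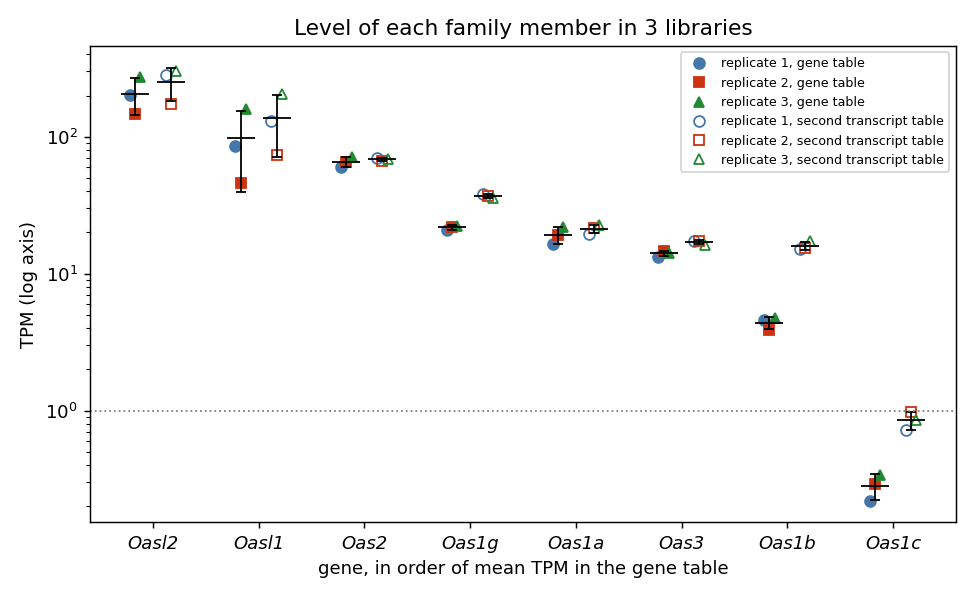
TPM (log axis) of each member in replicates 1, 2 and 3, from the gene table (filled) and from the second transcript table summed per gene (open), with horizontal bars at the mean and error bars of 1 SD (n = 3). The dotted line marks a TPM of 1. Oasl1 runs from 46.2 to 160 TPM, while Oas1g stays between 20.9 and 22.5.

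A second transcript table, made by another quantifier, put all 8 members in the same order of mean TPM, with other distances between them. Its mean TPM was 251 for Oasl2, 137 for Oasl1, 68.4 for Oas2, 37.0 for Oas1g, 21.3 for Oas1a, 17.0 for Oas3, 15.9 for Oas1b and 0.853 for Oas1c. The ratio of the second to the first table was thus 1.04 for Oas2 and 3.62 for Oas1b, against a median of 1.58 over detected coding genes. Oas3 exceeded Oas1b by only 0.09 on the log2(TPM + 1) scale in the second table (exact permutation p = 0.5). Their ranges overlapped there, with Oas3 at 17.4, 17.3 and 16.3 TPM and Oas1b at 15.2, 15.4 and 17.2, and Oas1b was the higher in replicate 3. Oas2 exceeded Oas1g by 0.87 there, and Oas1g exceeded Oas1a by 0.77. Oasl1 was above Oas2 in all 3 libraries, by 0.87. In Oas1b the difference between tables lay in both transcripts: Oas1b-202, a processed transcript of 558 bases, had 1.90 TPM in the first transcript table and 8.50 in the second, and Oas1b-203, the polymorphic pseudogene transcript, 2.49 and 7.42. Oas1b-201, annotated as coding, was listed at 0 in both.

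The levels of the Oasl genes spanned a wider range over the libraries than those of the other detected members. Of the 7 detected members, 3 (Oasl1, Oasl2 and Oas1b) had their lowest TPM in replicate 2, against 11.5% of detected coding genes. After each library was scaled to the median ratio over coding genes, all 7 were lowest there, against 37.5% of detected coding genes. An earlier look at these data had already shown antiviral genes low in replicate 2. These counts therefore describe that pattern again and are no independent support for it. Replicate 2 had the smallest labelled input of RNA and the largest scaling factor (1.14, against 0.846 and 1.04), and the part of either in these values was not tested. The level in replicate 3 was 3.47 times that in replicate 2 for Oasl1 and 1.87 times for Oasl2. For the other detected members that ratio ran from 0.975 (Oas3) to 1.22 (Oas1b). In the second transcript table it was 2.76 for Oasl1 and 1.74 for Oasl2.

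Highest over lowest TPM reached 2 in 1 of the 7 detected members, Oasl1, a share close to the 13.5% of detected coding genes that did so. The median over those genes was 1.47, and Oasl2 (1.87) lay above it. Oas1a (1.32), Oas1b (1.22), Oas2 (1.18), Oas3 (1.10) and Oas1g (1.08) lay below it. These ranges are of unscaled TPM, and the median replicate 1 over replicate 2 TPM of detected coding genes was 0.741.

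The biological coefficient of variation (BCV) is edgeR's estimate of the spread between libraries beyond counting noise. It was 0.345 for Oasl1, at the 99.3rd percentile of 9843 coding genes, and 0.247 for Oasl2, at the 94.1st. Oas1b had 0.225, at the 89.2nd percentile. The other 4 members with an estimate, Oas3, Oas2, Oas1g and Oas1a, had values of 0.151 to 0.160, between the 20.4th and 34.8th percentiles and below the common value of 0.181. Without replicate 2 the estimates were 0.138 for Oasl1, 0.114 for Oasl2, 0.141 for Oas1b, and 0.110 to 0.115 for the other 4. The shift over all genes in that refit is not given here. These lower values are therefore not read as particular to the members.

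Most of the 14 interferon-stimulated comparators were also lowest in replicate 2. All 14 were detected, against 35.7% of coding genes. By TPM 12 were lowest there, against 11.5% of detected coding genes, and after scaling of libraries 13, against 37.5%. A range of at least 2-fold was reached by 7, against 13.5% of detected coding genes. The median BCV was 0.267, against the common value of 0.181. The list was chosen with earlier results known, which had shown antiviral genes low in replicate 2. Cmpk2, a mitochondrial nucleotide kinase transcribed next to Rsad2, stood at 74.1, 17.7 and 99.2 TPM, with replicate 3 at 5.62 times replicate 2. Cxcl10, a chemokine, stood at 55.1, 22.4 and 76.3 TPM, a ratio of 3.40. Ifnb1, which encodes interferon beta, stood at 23.6, 14.3 and 37.3 TPM, a ratio of 2.61. Each of these was ordered like Oasl1, with replicate 2 lowest and replicate 3 highest. By unscaled TPM, 2 comparators were not lowest in replicate 2. They were Usp18, a protease that removes ISG15 and restrains interferon signalling, and Bst2, the tetherin gene. Replicate 3 had 0.961 times the TPM of replicate 2 for Usp18 and 0.933 times for Bst2.

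**Figure D3:**
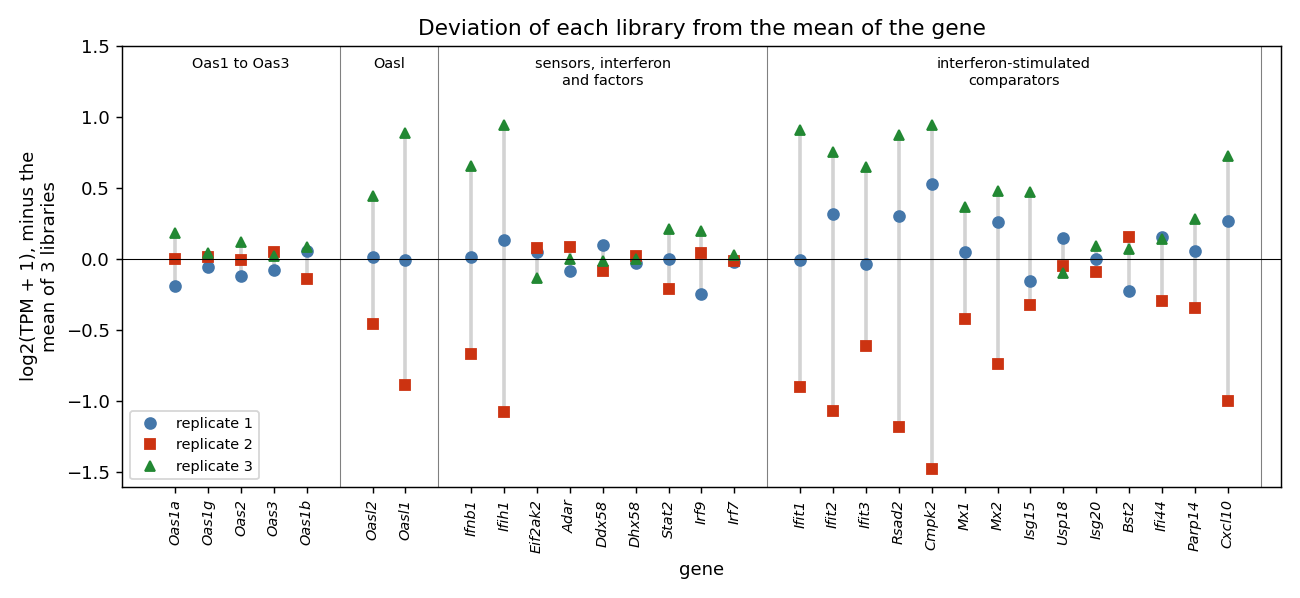
Deviation of replicates 1, 2 and 3 from the mean of each gene, on the log2(TPM + 1) scale, for the 7 detected members, selected sensors, Ifnb1, factors and the 14 comparators. Grey lines join the lowest and highest library. Oasl1 spans -0.88 to 0.89, while Oas1g spans -0.06 to 0.04.

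Coding genes whose profile over the 3 libraries was closest to the median of the 7 detected members were Tmco3, Vps8, Mllt6 and Trim34a. Their distances were 0.0340 to 0.0355 on the centred log2(TPM + 1) scale, among 6134 coding genes with a mean count of at least 100. That median profile, of TPM without scaling of libraries, was nearly flat, at -0.06, -0.01 and 0.12. Likeness over 3 libraries thus describes only genes whose unscaled TPM hardly varies.

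In chromatin RNA the annotated transcript to which reads are assigned can be spliced or can keep intron sequence. The TPM of retained-intron transcripts was set against that of coding transcripts in the 5 members with both classes, by limma on the log2 ratio with Benjamini-Hochberg adjustment over 5601 genes. Retained-intron transcripts were higher in 3 (Oasl2, Oasl1 and Oas1g), against 35.5% of all genes tested. Coding transcripts were higher in 2 (Oas2 and Oas3), against 31.9%. Over all genes the median log2 ratio was 0.08. Calls in both directions were thus common in these libraries. With the mean TPM per annotated transcript of each class in place of the sum, the split over all genes was 2404 with retained introns higher and 1257 with coding higher, against 1987 and 1785. Oas1a, Oas1b and Oas1c have no retained-intron transcript in the annotation and were not tested.

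Oasl2 had 138, 108 and 191 TPM in retained-intron transcripts and 15.0, 12.1 and 21.4 TPM in coding transcripts. The log2 ratio was 3.13 (SE 0.13, limma adjusted p = 6.50e-07), with retained-intron transcripts higher in each library. They made up 70.7% ± 2.89 (SD, n = 3) of the gene's TPM, a transcript annotated for nonsense-mediated decay 21.4% ± 3.33 and coding transcripts 7.87% ± 0.444. The highest retained-intron transcript, Oasl2-208, is a single exon of 2108 bases at 4898 to 7005 bases from the gene start. All of its bases lie within an intron of the reference coding transcript, Oasl2-201. It had 44.5, 33.7 and 58.7 TPM, while Oasl2-201 had 12.3, 10.8 and 16.6. In mean expected counts, which do not correct for length, Oasl2-208 had 1498 and Oasl2-201 had 669. In the second transcript table the highest was Oasl2-203, another retained-intron transcript, at 62.6 TPM against 33.8 in the first.

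Oasl1 had 60.1, 30.1 and 117 TPM in its only retained-intron transcript and 21.8, 14.2 and 43.1 TPM in coding transcripts. The log2 ratio was 1.31 (SE 0.14, limma adjusted p = 6.82e-05). That transcript, Oasl1-204, is 800 bases long, and 403 of them lie in introns of the reference coding transcript, Oasl1-202. Both classes were lowest in replicate 2 and highest in replicate 3, like the gene as a whole. By mean expected counts Oasl1-202 was the higher of the pair, with 876 against 685. In the second transcript table processed transcripts took 24.9% ± 4.92 (SD, n = 3) of Oasl1, against 2.85% ± 2.48 in the first. Nearly all of it was Oasl1-203, at 32.1 TPM there and 0.24 in the first.

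Oas1g had 6.41, 6.02 and 7.51 TPM in its retained-intron transcript and 4.02, 3.13 and 4.95 TPM in its coding transcript. The log2 ratio was 0.67 (SE 0.18, limma adjusted p = 1.00e-02). By mean expected counts, which do not correct for length, the order of these transcripts was reversed. The coding transcript, Oas1g-201, had 123 and the retained-intron transcript, Oas1g-202, had 62.4. The transcript annotated for nonsense-mediated decay, Oas1g-203, was higher than either, at 10.4, 12.8 and 10.01 TPM, or 51.0% ± 6.97 (SD, n = 3) of the gene. In the second transcript table that order turned, with 18.5 TPM for the retained-intron transcript, Oas1g-202, and 14.9 for Oas1g-203. The log2 ratio of retained-intron to coding transcripts was 2.24 there (limma adjusted p = 2.94e-06). Since Oas1g and Oas1a share sequence, this division also rests on how shared reads were assigned. All of Oas1a was assigned to its only transcript, which is coding.

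Oas2 was the opposite of Oasl2. Its retained-intron transcript had 2.27, 2.30 and 1.92 TPM and its coding transcripts 58.0, 62.8 and 69.5 TPM. The log2 ratio was -4.58 (SE 0.15, limma adjusted p = 2.57e-07), and coding transcripts made up 96.7% ± 0.566 (SD, n = 3). The first transcript table gave 46.8 TPM to Oas2-201 (742 residues) and 12.3 to Oas2-202 (751 residues), while the second gave 31.7 and 25.9. The balance between these 2 coding forms thus differed between the tables, and their sum hardly did.

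Oas3 had 4.73, 4.13 and 3.64 TPM in retained-intron transcripts and 8.59, 10.5 and 10.6 TPM in coding transcripts. The log2 ratio was -1.16 (SE 0.19, limma adjusted p = 6.98e-04), and coding transcripts made up 70.3% ± 5.17 (SD, n = 3). The full-length coding transcript, Oas3-201, was the highest in both tables, at 7.09 and 8.99 TPM. One of the coding transcripts, Oas3-202, is a fragment of 721 bases that holds the whole of intron 15, of 180 bases. The retained-intron transcript Oas3-204 is a single exon that holds the whole of intron 13, of 639 bases, and stood at 2.43, 2.67 and 2.67 TPM. The class names thus do not divide spliced from unspliced RNA exactly in Oas3.

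**Figure D4:**
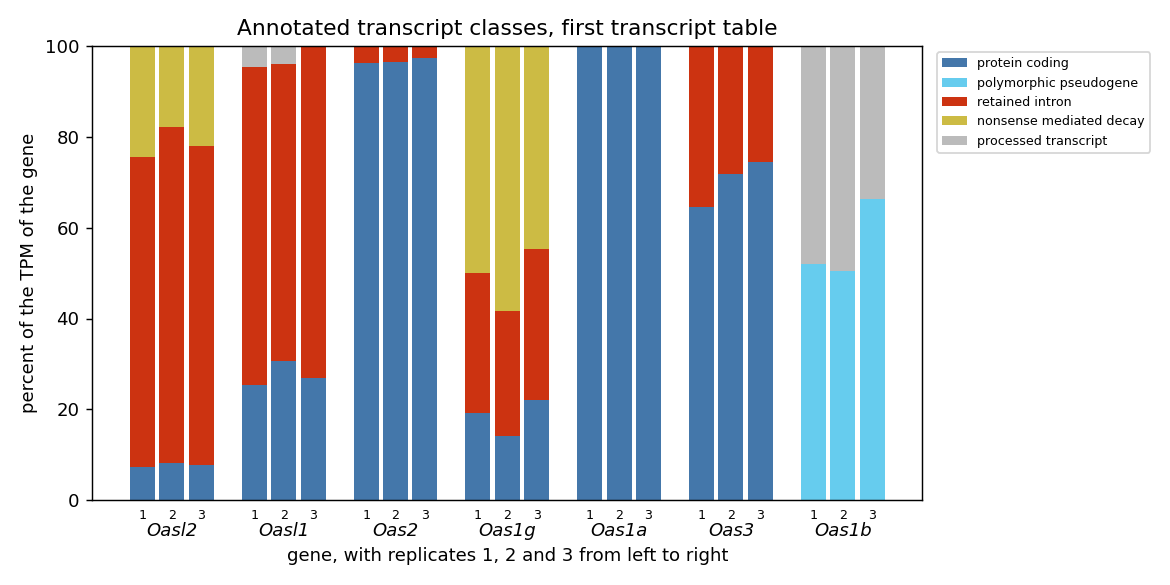
Percent of each detected member's TPM (first transcript table) by annotated transcript class, with 1 stacked bar for each of replicates 1, 2 and 3. Retained-intron transcripts take 68.2% to 73.9% of Oasl2 and 2.7% to 3.8% of Oas2 over the 3 libraries, while the 2 classes of Oas1b range more widely.

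Other genes of the pathway were taken from a list of 42. Of the 4 other Oas1 genes, 0 were detected in the gene table. Oas1d, Oas1e and Oas1f had 0 counts in every library, which allows up to 3 counts in each by counting error alone. Oas1h had 26, 15 and 24 counts, or 0.837 TPM ± 0.197 (SD, n = 3). In the second transcript table Oas1h passed the detection rule, at 1.56, 1.49 and 1.97 TPM. Of the nearest coding genes outside the clusters that are not Oas genes, 2210016L21Rik, beside Oasl1, was detected. Its level was 4.78 TPM ± 0.930 (SD, n = 3). The others, 4930519G04Rik, Dtx1 and Rph3a, were listed at 0.

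Genes that act on or after 2-5A were detected at low to moderate levels. Abce1, whose protein is known as a ribosome recycling factor, was at 14.0 ± 3.22 TPM (SD, n = 3), with 10.3 in replicate 1, 16.1 in replicate 2 and 15.7 in replicate 3. Akap7 and Pde12, which encode enzymes that degrade 2-5A, were at 7.08 ± 1.36 and 2.90 ± 0.622 TPM. In Abce1 retained-intron transcripts were higher than coding ones (log2 ratio 1.51, SE 0.16, limma adjusted p = 6.96e-05). Akap7 and Pde12 were not tested for isoform balance.

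Of 8 other nucleic-acid sensors, 7 were detected. Ifih1, the MDA5 sensor of long double-stranded RNA, was the highest, at 323, 139 and 566 TPM, or 342.5 ± 214 (SD, n = 3). It varied like Oasl1, with replicate 3 at 4.07 times replicate 2. Eif2ak2 (the kinase PKR), Adar (an RNA-editing enzyme), Ddx58 (the RIG-I sensor) and Dhx58 (LGP2) were at 49.1, 49.0, 42.7 and 42.3 TPM. Highest over lowest TPM in these 4 was between 1.035 and 1.16. Zbp1, a sensor of Z-form nucleic acid, was at 10.2 TPM and the DNA sensor Cgas at 4.56. Tlr3, the endosomal receptor, was the one below detection, at 0.757. Of 4 sensors tested for isoform balance, retained-intron transcripts were higher in 1 (Zbp1) and coding transcripts in 0. Over all genes tested those shares were 35.5% and 31.9%.

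All 5 genes of interferon beta and its receptor were detected. Of the receptor genes, Ifnar1 was at 80.6 ± 22.3 TPM and Ifnar2 at 59.8 ± 13.5 (SD, n = 3), and the kinases Jak1 and Tyk2 were at 71.3 and 32.6. Stat2 and Irf9, subunits of the complex that binds ISREs, were at 74.8 and 20.3 TPM. The transcription factor Irf1 was higher, at 302 ± 52.3 TPM. Irf7, whose translation Oasl1 is known to repress, stood at 23.0, 23.1 and 23.8 TPM, with a highest over lowest value of 1.04. In the isoform test, retained-intron transcripts were higher in the factors Stat2, Irf3, Irf7 and Irf8 and coding transcripts in Irf1, and Irf9 passed in neither direction. Of 2 interferon and receptor genes tested, coding transcripts were higher in 1 (Tyk2), against 31.9% of all genes tested. Of 8 comparators tested, retained-intron transcripts were higher in 6 and coding transcripts in 0, against 35.5% and 31.9% of all genes tested. Among the 6, Mx2 had a log2 ratio of 3.44 (SE 0.26, limma adjusted p = 9.84e-06). Mx2 is annotated as a polymorphic pseudogene, and any transcript of that class was not counted as coding. Its ratio is therefore not directly comparable with that of Oasl2, and the count of 6 includes it.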

How the data were processed

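The 3 libraries form 1 group, so no contrast between groups was tested. Per the file headers, the gene table and the first transcript table of each library hold an expected count, a posterior SD of the count and a TPM, named as RSEM names them. A second transcript table holds an estimated count and a TPM, named as by kallisto. The genome was mm10, per the labels, and the annotation GENCODE M21, per the text files deposited with each library. The sources used here do not give the aligner, program versions or strand setting. Genes that overlap or run antisense are therefore uncertain. TPM was used as deposited by the authors.

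Members and gene lists were chosen with earlier results of these data known. Named were all members, their main transcripts, genes of the lists in the report and the 5 genes nearest the median member profile. Main means highest in either transcript table, and further transcripts, Apol9a and Apol9b were chosen after their values were seen. Symbols, classes and coordinates came from M21.

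Levels are gene-table TPM, and differences add 1 before log2. Isoform balance is log2 of retained-intron over coding TPM, 0.5 added to each, tested with limma 3.58.1 (intercept only, variance trend) in genes that have both classes and average 1 TPM or more in sum. BCV came from edgeR 4.0.16 (estimateDisp, TMM, filterByExpr) for 12505 genes, after rounding the expected counts. Both were tested on simulated data. R was 4.3.3, DESeq2 1.42.0, python 3.11.15, numpy 2.4.6 and pandas 2.3.3. Depth is given in the report, and intervals or floors cover counting error only. Comparison of protein sequences was not done here. Some genes of the lists and 1 of the 5 nearest genes are not reported here.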

Additional observations from a re-analysis of the deposited data

How the results depend on the processing

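All 7 detected members stayed detected under every alternative, except that 6 had a TPM of at least 5. The count of members lowest in replicate 2 was 3 by TPM, 7 by CPM and 7 after scaling of libraries. CPM, a library share of expected counts that is not divided by length, reversed 3 differences between neighbours in the order: Oasl1 minus Oas2 was -1.44, Oas1g minus Oas1a -0.35 and Oas1a minus Oas3 -0.39 on the log2 scale. The isoform calls of the 5 members tested kept their direction and their side of the threshold under all 11 alternatives. These were other pseudocounts, filters, class definitions, quantifier, variance model and each library left out, and all used TPM, which corrects for length. By mean expected counts, which do not, the order was reversed in Oasl1 and Oas1g. The coding Oasl1-202 had 876.5 against 685 for Oasl1-204, and the coding Oas1g-201 had 123.4 against 62.41 for Oas1g-202. Oasl2, Oas2 and Oas3 kept their order by those counts. Over all genes, retained-intron transcripts were higher in 3200 and coding transcripts in 2216 by the second transcript table, and in 1493 and 1116 at a mean of at least 5 TPM, against 1987 and 1785. No paired analysis was possible because there is 1 group. Without replicate 2 the BCV was lower by more than 1.5 times in Oasl1, Oasl2 and Oas1b, and by less in the other members with an estimate. The shift over all genes in that refit is not given here, so this is not read as particular to the members.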
